A study of Drosophila melanogaster with 18 samples.

Results

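RNA of whole Drosophila melanogaster flies of the laboratory strain w1118, which lacks eye pigment, was sequenced in 3 treatment groups of 6 libraries, and in each group 3 library names carry no hyphen and 3 carry one. The comparison described here runs between these 2 name series over flies of adult day 0 and flies given food with 1 µM cycloheximide (CHX, an inhibitor of the elongation step of protein translation) until day 2. It took 12 of the 18 libraries, 6 without a hyphen (3 at day 0, 3 with CHX) against 6 with a hyphen (3 at day 0, 3 with CHX), with the treatment group as a covariate. The 6 day 2 vehicle libraries, 3 of each series, were left out and serve only to set values beside. The members were chosen by name alone. The labels do not say what the series mark, so anything that was handled differently between them, whether flies, food, RNA preparation or sequencing, cannot be told apart from the name. No allele beyond w1118 is named in the labels, which also leave out the sex of the flies and do not state whether the libraries of 1 group were separate cultures. The spread that the p-values rest on may therefore be technical.

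Several systems that come up below are active around eclosion. Metallothioneins are small cysteine-rich proteins that bind copper, zinc and cadmium, and their genes are switched on by metal through the transcription factor MTF-1. Ferritin stores iron as a secreted complex of heavy and light chains. The cuticle of a young fly is laid down before eclosion and then hardened and darkened by tanning enzymes, while the gut starts to secrete trypsins, Jonah proteases, amylases and lysozymes with feeding. Bomanins are short secreted peptides of the Toll branch of immunity.

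Library totals ranged from 24932083 to 37879190 counts without and from 24033830 to 38519240 with a hyphen, and none of 11 library measures passed a test between the series (exact permutation test within treatment groups, two-sided, lowest p = 0.075, lowest adjusted p = 0.364, smallest p possible 0.005). Mitochondrial transcripts took 16.9% to 21.8% of the counts without and 15.6% to 20.6% with a hyphen. Genes with more than 5000 exon bases took 11.2% to 16.5% without and 11.6% to 18.3% with a hyphen (p = 0.145 by the same exact permutation test, adjusted p = 0.364). The first principal component of log2 CPM held 40.9% of the variance, and the hyphenated CHX library of number 1 lay at -9.11 on it, among the values without a hyphen (-25.3 to 5.17), as did the hyphenated day 0 library of number 1 at -5.49. The other hyphenated libraries lay at 22.1 and 24.9 in CHX and at 23.1 and 12.3 at day 0. The hyphenated CHX library of number 1 had a long-gene share of 11.6%, against 17.7% and 18.3% in the other hyphenated CHX libraries. The hyphenated day 0 library of number 1 held 41.2 CPM, here scaled to library totals alone, of 40 male germline and accessory gland markers. The other 11 libraries held 1.95 to 5.17 CPM of them. The 40 leave out EbpIII, the most abundant of the 41 matched genes of that list. EbpIII had 912 CPM (TMM-scaled) in the hyphenated day 0 library of number 1 and 729 to 1114 CPM in the others, and a sum that includes it does not show the excess. Counts of genes called without these 2 libraries are given below for some lists, and the counts of other lists changed as well. The yolk protein gene Yp1, a female marker, had 1035 to 2154 CPM without and 692 to 1497 CPM with a hyphen, and the male dosage compensation RNA roX1 at most 2.98 CPM.

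Of 11312 features tested, 681 differed between the name series over day 0 and CHX (6.02% of those tested, edgeR quasi-likelihood test with Benjamini-Hochberg adjustment, adjusted p under 0.05). Of these 378 were higher (3.34%) and 303 lower (2.68%) without a hyphen, and 100 and 49 of them by over 2-fold. The median absolute log2 fold change of the 681 was 0.61, and 675 of them are genes and 6 transposon insertions. All 681 had the same sign at day 0 and in CHX, as did 70.0% of all features tested. The test over both treatment groups favors features whose signs agree, so the agreement of the 681 is no separate support. In 342 of the 681, and in 404 features overall (3.57%), the 6 libraries without a hyphen did not overlap the 6 with one. The share called ranged from 4.89% of the features tested on X to 6.95% on 2R, was 1.56% on chromosome 4, and 0 of 19 mitochondrial features passed. Without the hyphenated CHX library of number 1 the count was 1068 of 11559 tested, of which 639 are among the 681. It was 377 without the hyphenated day 0 library of number 2, 415 without that of number 3, 390 without the unhyphenated day 0 library of number 3 and 400 without the unhyphenated CHX library of number 2. Without the hyphenated day 0 library of number 1 it was 918 of 11514 tested, with 651 shared. List counts given below without either hyphenated library of number 1 are to be set against these larger totals, not against 6.02%.

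Taken alone, 3 against 3, the day 0 libraries gave 94 differing features (0.831%, 28 higher, 0.248%, and 66 lower, 0.583%, without a hyphen) and the CHX libraries 35 (0.309%, 21 higher, 0.186%, and 14 lower, 0.124%). Of these, 93 and 35 were among the 681, and 23 were called in both treatment groups. The CHX count rests on single libraries: it was 1458 without the hyphenated CHX library of number 1 (616 higher and 842 lower, so that the lower calls were then the more numerous, as they were with the long-gene share described below as a covariate, 16 higher and 20 lower), between 1 and 6 without any single one of the other 5 CHX libraries, and between 8 and 138 without a day 0 library, which enters through the shared spread. The day 0 count was 2 without the unhyphenated day 0 library of number 3, 4 without the hyphenated one of number 2, 16 without that of number 3, 43 without the unhyphenated one of number 2 and 228 without the hyphenated one of number 1, and it lay between 48 and 177 without a CHX library.

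**Figure D1:**
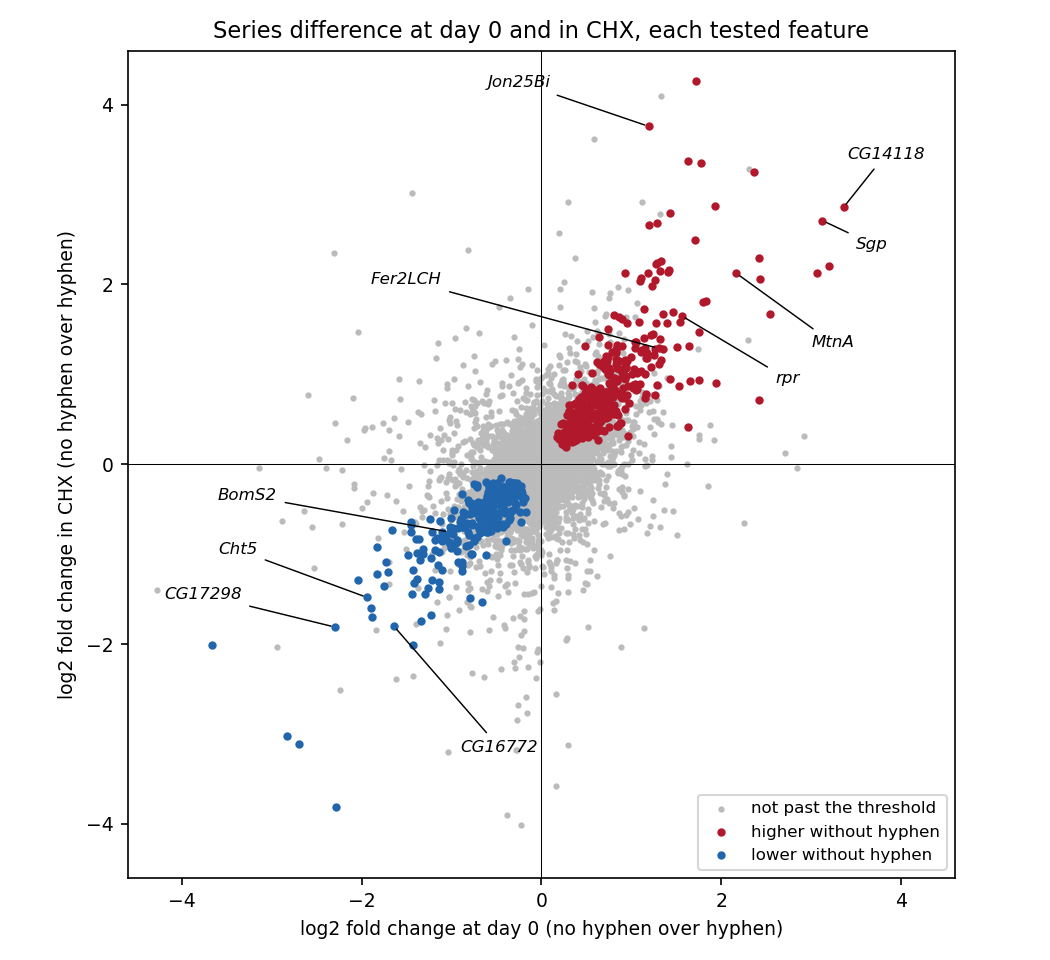
Log2 fold change of each tested feature, libraries without over libraries with a hyphen, at day 0 (x axis) and in CHX (y axis); red and blue points passed the test over both treatment groups. All 681 colored features lie in the lower left or upper right part, which the test over both groups favors. In all 5 features, 1 of them called, fall outside the axes.

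The metal-binding genes stood out among those higher without a hyphen. The metallothionein genes MtnA to MtnE and both ferritin subunits rose. MtnA (FBgn0002868, 3R from 9783407 to 9784370), the most abundant metallothionein here, had 593, 617 and 961 CPM (read counts scaled to library size with TMM factors) in the day 0 libraries without a hyphen, against 190, 138 and 155 CPM in those with one. In CHX flies it had 569, 822 and 585 CPM without and 179, 121 and 154 CPM with a hyphen. The lowest unhyphenated library thus lay far above the highest hyphenated one in each treatment group. The log2 fold change was 2.15 (standard error, SE, 0.15, adjusted p = 1.6e-05 from edgeR), with 2.17 at day 0 and 2.12 in CHX, the lowest adjusted p of all named genes, and it stayed between 2.00 and 2.20 under every alternative tried.

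MtnC, with 26.3 CPM without and 10.3 CPM with a hyphen, had a log2 fold change of 1.36 (adjusted p = 0.00316 from edgeR). MtnB (1.25), MtnD (1.23) and MtnE (1.12, adjusted p = 0.0323 from edgeR) were expressed at 4.94, 10.6 and 11.4 CPM without and 2.11, 4.54 and 5.12 CPM with a hyphen. The series of MtnA, MtnB and MtnC did not overlap, while those of MtnD and MtnE did. MtnA and MtnC are among the 12 largest rises, which were picked under a condition of no overlap within each treatment group.

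Fer2LCH (FBgn0015221, 3R from 30387804 to 30390584), the ferritin light chain, had 1593, 1798 and 2393 CPM without and 803, 780 and 761 CPM with a hyphen at day 0, and 2185, 2036 and 1432 CPM without and 873, 722 and 718 CPM with a hyphen in CHX. Its log2 fold change was 1.3 (SE 0.12, adjusted p = 0.00015 from edgeR). The heavy chain Fer1HCH, its neighbor on the opposite strand with shared exon positions, had 1852 CPM without and 816 CPM with a hyphen (log2 fold change 1.18, SE 0.12, adjusted p = 0.000236 from edgeR). The hyphenated libraries of both genes lay close together, between 718 and 938 CPM, and the unhyphenated ones spread from 1432 to 2393 CPM. Of a list of 37 metal storage and transport genes, assembled after these results had been seen, 34 were tested. Of these 10 rose (29.4%, against 6.02% of all features tested) and 0 fell. Without the hyphenated CHX library of number 1 there were 9. Beside the 7 genes above the 10 included ZnT77C, a zinc transporter gene (0.42), and Irp-1B, an iron regulatory protein (0.36). The summed list had 6202 ± 868 CPM without and 3398 ± 139 CPM with a hyphen (SD, n = 6 each), with a median log2 fold change of 0.08, against 0.0081 over all features tested. With the long-gene share as a covariate, an alternative chosen after seeing the data, 10 members rose as well, although MtnE then missed the threshold (0.95, adjusted p = 0.156 from edgeR).

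**Figure D2:**
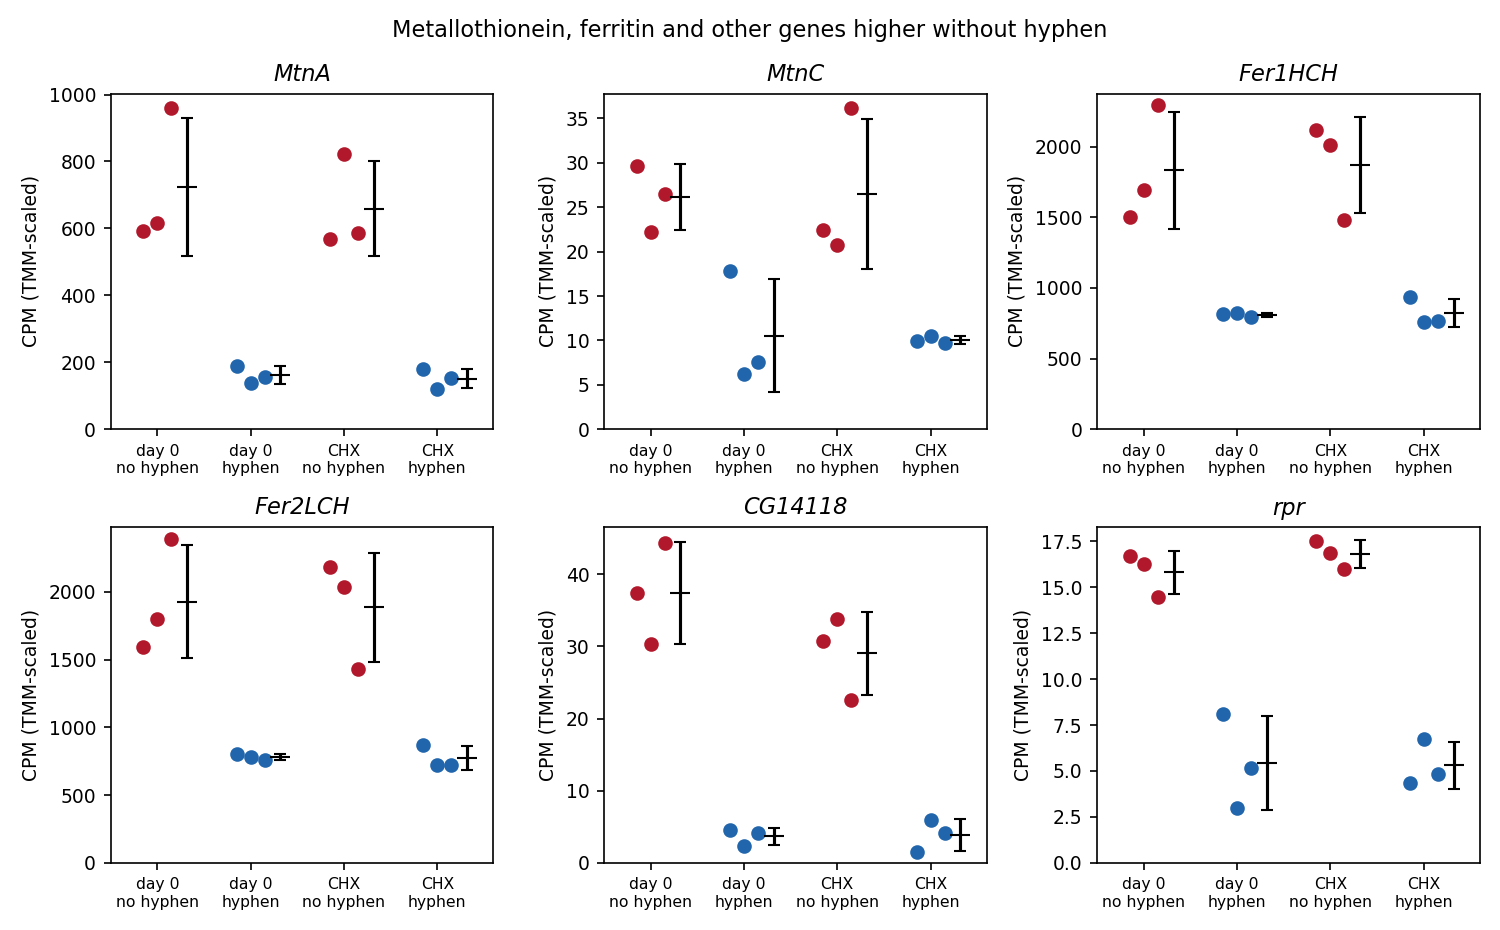
TMM-scaled CPM of MtnA, MtnC, Fer1HCH, Fer2LCH, CG14118 and rpr in each library (points), with mean and SD of the 3 libraries beside them, for day 0 and CHX without (red) and with (blue) a hyphen. In each panel the unhyphenated libraries lie above all hyphenated ones. For MtnA, MtnC, CG14118 and rpr, no overlap within each treatment group was a condition for being named among the largest rises.

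The gene with the largest rise under the rule for named genes was CG14118 (FBgn0036323, 3L from 12892658 to 12894758), which the annotation gives no name. It had 37.4, 30.3 and 44.4 CPM without and 4.53, 2.31 and 4.17 CPM with a hyphen at day 0. In CHX it had 30.7, 33.8 and 22.6 CPM without and 1.49, 5.97 and 4.15 CPM with a hyphen. The groups lay far apart, with a log2 fold change of 3.11 (SE 0.26, adjusted p = 5.73e-05 from edgeR). No overlap within each treatment group was a condition of the rule for the largest rises. Sgp followed with 2.92 (SE 0.46, adjusted p = 0.0031 from edgeR), at 15.8 CPM without and 2.01 CPM with a hyphen, and its lowest unhyphenated library had 4.94 CPM against 3.46 CPM in the highest hyphenated one.

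rpr (FBgn0011706, 3L from 18397535 to 18398435), which encodes Reaper, an activator of apoptosis that binds the caspase inhibitor Diap1, had a narrow range of 14.5 to 17.5 CPM in the unhyphenated libraries and 3.01 to 8.12 CPM in the hyphenated ones. Its log2 fold change was 1.6 (SE 0.18, adjusted p = 0.000345 from edgeR), 1.56 at day 0 and 1.65 in CHX. It was the only 1 of 14 tested genes of an apoptosis list, chosen after results were seen, that passed. That share is 7.14%, near the 6.02% of all features tested. The neighbor of rpr, hid, had 0.15 (adjusted p = 0.371 from edgeR). With the long-gene share as a covariate 2 genes of the list rose, and hid then had 0.26 (adjusted p = 0.0495 from edgeR). Another 5 genes of the 12 largest rises have no name beyond an identifier: CG31681 (1.83), CG14500 (1.78), CG11911 (1.59), CG4830 (1.56) and CG4716 (1.33). The remaining 4, MtnA, MtnC, Obp99a and Jon25Biii, are described with their lists.

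Genes of the cuticle moved in both directions, and tanning and chitin genes were mostly lower without a hyphen. Of 50 tested cuticle proteins 7 rose and 6 fell (26%, against 6.02% of all features tested, list median 0.02). The adult cuticle protein gene Acp65Aa (FBgn0020765, 3L from 6152050 to 6152745) had 831, 560 and 666 CPM without and 409, 230 and 313 CPM with a hyphen at day 0, and 699, 800 and 674 CPM without and 412, 346 and 304 CPM with a hyphen in CHX. Its series did not overlap and its log2 fold change was 1.07 (adjusted p = 0.000795 from edgeR). The chitin-binding Cpr proteins split. Cpr64Ac (1.19), Cpr47Ea (1.15), Cpr49Ab (0.97) and Cpr49Ae (0.95, 1830 CPM without and 948 CPM with a hyphen) were higher, and Cpr97Ea (-0.78) and Cpr100A (-0.57) lower. The gene of the elastic protein resilin had -0.91, at 3.89 CPM without and 7.33 CPM with a hyphen.

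Cht5 (FBgn0038180, 3R from 13767549 to 13770732), a chitinase of molting, had 95.3, 94.4 and 66.9 CPM without and 187, 470 and 327 CPM with a hyphen at day 0. In CHX it had 123, 108 and 120 CPM without and 340, 287 and 354 CPM with a hyphen. All unhyphenated libraries lay below all hyphenated ones, with a log2 fold change of -1.71 (SE 0.19, adjusted p = 0.000263 from edgeR). Cht5 and Vajk1 are among the 12 largest falls, for which no overlap within each treatment group was a condition. Vajk1, of a small family of cuticle genes, had 7.01 to 14.9 CPM without and 25.6 to 37.4 CPM with a hyphen (-1.37, adjusted p = 0.000452 from edgeR). A list of tanning, chitin, Vajk and Tweedle genes was assembled after results had been seen. In it 45 were tested, 17 fell and 4 rose, with a median of -0.21. The calls are 46.7% of the tested members, against 6.02% of all features tested.

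Enzymes and structural genes were among those that fell. ple, the tyrosine hydroxylase that starts the tanning pathway, had 215 to 276 CPM without and 310 to 506 CPM with a hyphen (-0.79, SE 0.12, adjusted p = 0.00239 from edgeR). e, which joins beta-alanine to dopamine, had -0.77 (adjusted p = 0.0129 from edgeR, and 0.09 with the long-gene share as a covariate) and the peroxidase gene Pxd -0.90. The chitin synthase gene kkv had -0.65, the chitin-binding obst-A -0.94 and Gasp -0.45, the chitin deacetylases serp and verm -0.54 and -0.55, and the Tweedle gene TwdlT -0.87. The 4 that rose were yellow-d (0.82) and its relative y (0.64), a pigmentation gene, with the chitinase-like Idgf6 (0.41) and Idgf2 (0.32). dyw, whose exons overlap per on the opposite strand, had -1.13, and slow -1.14. The summed list had 6543 ± 508 CPM without and 8322 ± 568 CPM with a hyphen (SD, n = 6 each). Without the hyphenated CHX library of number 1, 20 members fell and 4 rose.

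The gene with the largest fall under the rule for named genes was CG17298 (FBgn0038879, 3R from 21283197 to 21284050), at 9.67 to 21.6 CPM without and 33.1 to 82.7 CPM with a hyphen, a log2 fold change of -2.05 (SE 0.21, adjusted p = 0.000238 from edgeR). CG16772 (-1.72) had 59.8 to 96.0 CPM without and 163 to 397 CPM with a hyphen. The others among the 12 largest falls were CG14752 (-1.52), phu (-1.45), l(3)mbn (-1.40), the P450 gene Cyp4s3 (-1.37), CG15263 (-1.36), CG3999 (-1.21) and Sid (-1.14), an endonuclease gene induced by stress, together with Cht5, Vajk1 and slow. Some of these are weakly expressed, as phu and l(3)mbn had 3.95 and 5.30 CPM without and 10.6 and 13.6 CPM with a hyphen.

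**Figure D3:**
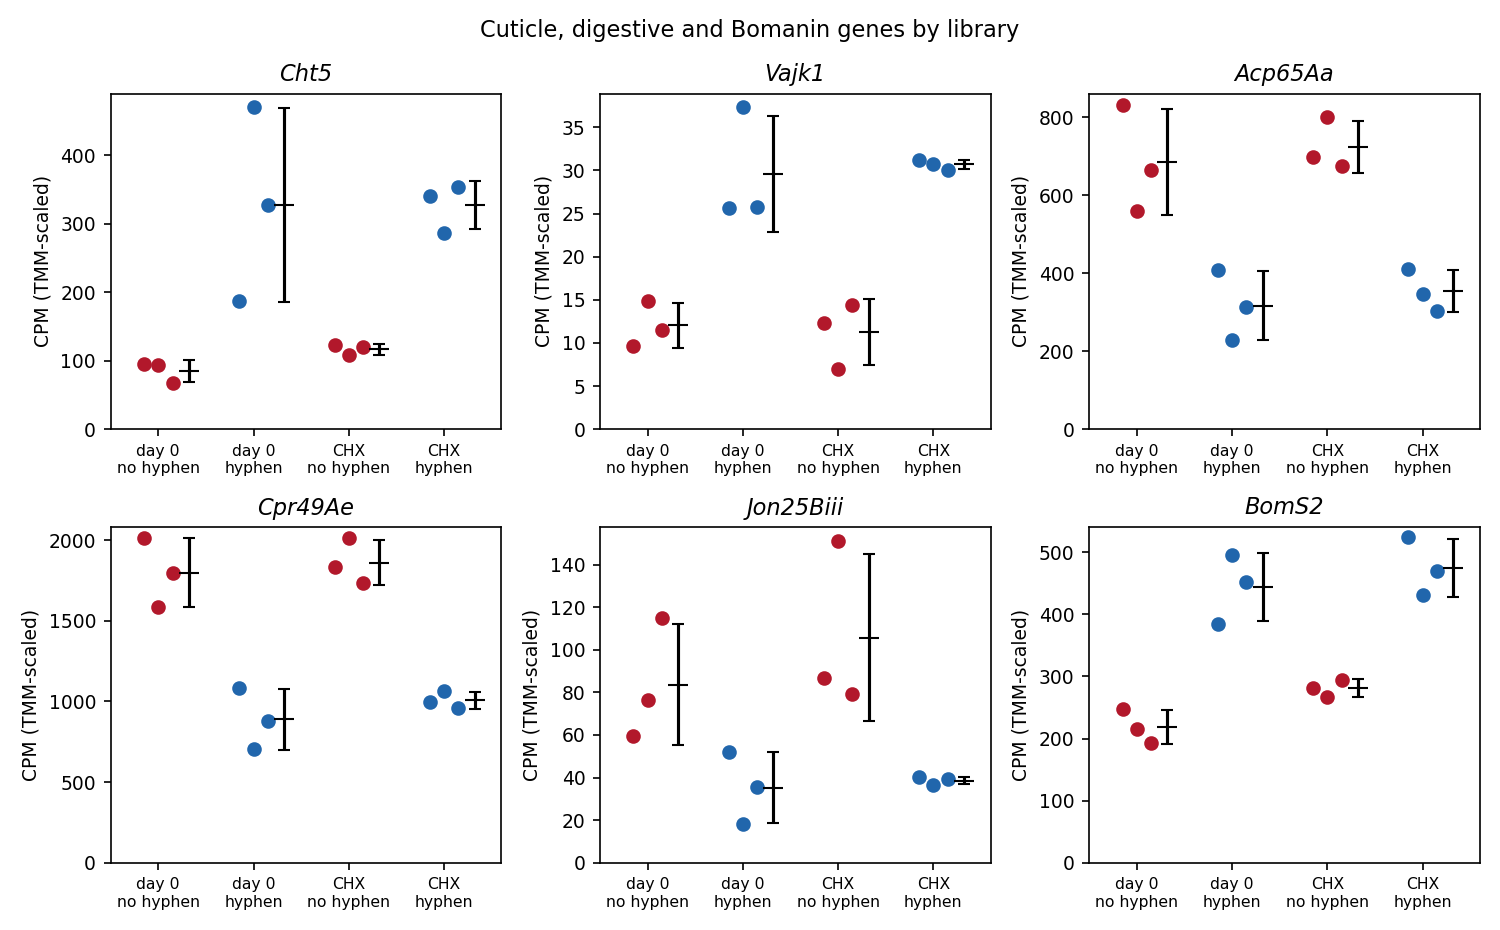
TMM-scaled CPM of Cht5, Vajk1, Acp65Aa, Cpr49Ae, Jon25Biii and BomS2 in each library (points), with mean and SD of the 3 libraries beside them. Without a hyphen (red) Cht5, Vajk1 and BomS2 are lower and Acp65Aa, Cpr49Ae and Jon25Biii higher than with one (blue) in both treatment groups. Cht5, Vajk1 and Jon25Biii were named under a condition of no overlap within each treatment group.

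Digestive serine proteases that passed were all higher without a hyphen, while amylases and maltases had both signs. In whole flies a change in the number of cells of a type and in the RNA of each cell cannot be told apart. Of 26 tested digestive serine proteases 16 rose (61.5%, against 6.02% of all features tested) and 0 fell. The median log2 fold change was 0.88 (0.68 at day 0 and 1.09 in CHX). The summed list had 3153 ± 804 CPM without and 1665 ± 451 CPM with a hyphen (SD, n = 6 each). Jon25Biii (FBgn0031653, 2L from 4949941 to 4950767), a Jonah protease, had 59.5, 76.3 and 115 CPM without and 51.8, 18.4 and 35.7 CPM with a hyphen at day 0. In CHX it had 86.9, 151 and 79.3 CPM without and 40.1, 36.6 and 39.1 CPM with a hyphen. The series lay next to each other without overlap, and the log2 fold change was 1.35 (SE 0.23, adjusted p = 0.00415 from edgeR). Jon25Biii is among the 12 largest rises, for which no overlap within each treatment group was a condition.

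Jon25Bi had the largest value of the list, 2.44 (adjusted p = 0.0442 from edgeR), but overlapped, with 11.5 to 166 CPM without and 5.75 to 37.4 CPM with a hyphen. betaTry, a trypsin, had 476 CPM without and 212 CPM with a hyphen (1.16), epsilonTry 1.73 and the abundant Jon65Aiii 0.88. Jon99Cii (1.77) and Jon99Ciii (1.75) are near-identical copies whose reads the counting may split, so their separate values are uncertain. Jon66Ci (1.80) was scarce, with 0.536 CPM without and 0.15 CPM with a hyphen. Of the 26 genes, 3 had series that did not overlap (11.5%, against 3.57% of all features tested). Leaving out the hyphenated library of number 1 of CHX or of day 0 gave 18 or 21 that rose, and 0 fell either way. The list sum was lowest among unhyphenated libraries in the day 0 library of number 1 (1900 CPM) and highest among hyphenated ones in the day 0 library of number 1 (2357 CPM).

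The other digestive lists went the same way in part. Of 14 tested maltases and amylases 5 rose and 2 fell (50%, against 6.02% of all features tested). Without the hyphenated CHX library of number 1, 4 rose and 3 fell. The list had 7 positive and 7 negative values, a median of 0.03, and summed levels of 2131 ± 151 CPM without and 2198 ± 144 CPM with a hyphen (SD, n = 6 each). The starch-digesting amylases Amy-p (1.08) and Amy-d (1.04), near-identical copies and so uncertain one by one, had 224 and 162 CPM without and 105 and 78.1 CPM with a hyphen, and their distant relative Amyrel 1.21. The maltase gene Mal-A3 rose (0.64), while Mal-A8 (-0.76) and Mal-A6 (-0.45) fell. Of 10 tested gut lysozyme, lipase and sterol-binding genes 5 rose and 0 fell (50%, against 6.02% of all features tested). Among them were the lipase gene mag (0.87, 56.9 CPM without and 31.1 CPM with a hyphen) and Npc2f (1.00). The lysozyme genes LysB (2.08) and LysE (1.96), whose cluster holds similar copies, rose too. They had 3.06 and 14.3 CPM without and 0.729 and 3.77 CPM with a hyphen.

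Gene length moved with these results, and its part in them was examined only through a covariate. Over 11273 features with an exon length, Spearman's rho between exon length and log2 fold change was -0.38, as a description across genes that share the same libraries. The median log2 fold change was 0.14 in the fifth of features with the shortest exons (up to 1029 bases) and -0.14 in the fifth with the longest (4001 bases and more), and of the calls 130 were higher and 47 lower in the first and 12 and 48 in the second. The median exon length was 904 bases for the digestive proteases, 637 for the lysozyme and lipase list, 386.5 for the Bomanin list and 2298 for the metal list. With the long-gene share of each library as a covariate, 4 of the 26 digestive proteases rose and 0 fell, and Jon25Biii had 1.17 (adjusted p = 0.0565 from edgeR). Under it 3 lysozyme, lipase and sterol-binding genes and 2 maltases or amylases rose. In this fit 832 features were called, of which 489 are among the 681, and the metal, cuticle (7 up, 7 down) and tanning (4 up, 18 down) counts moved by at most 1.

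Of 18 tested genes of Bomanins and other Toll outputs 7 fell (38.9%, against 6.02% of all features tested) and 0 rose. The list median was -0.46, and 4 of the 7 are Bomanins. Negative values were 16 of the 18. BomS2 (FBgn0025583, 2R from 18386602 to 18387030) had 248, 216 and 193 CPM without and 385, 495 and 452 CPM with a hyphen at day 0. In CHX it had 282, 267 and 295 CPM without and 524, 431 and 470 CPM with a hyphen. No library overlapped, and the log2 fold change was -0.89 (SE 0.09, adjusted p = 0.000238 from edgeR). BomS1 had -1.11 and BomS3 -0.80. The others that fell were BomBc3 (-0.58) and the Daisho peptide genes Dso1 (-0.46) and Dso2 (-0.61), with IM33 (-0.51). With the long-gene share as a covariate 7 members fell as well, although BomS1 then missed the threshold (-0.96, adjusted p = 0.0773 from edgeR). BomBc1 had -2.62 (adjusted p = 0.0807 from edgeR) and the abundant BomBc2 -0.27 (adjusted p = 0.149 from edgeR).

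Few other immune genes passed. Of 12 tested antimicrobial peptide genes 0 passed, with a median of 0.60, and Drs, the Toll-responsive antifungal peptide, had 95.4 CPM without and 84.6 CPM with a hyphen (0.17). Of 9 peptidoglycan recognition genes 1 rose (11.1%, against 6.02% of all features tested), the amidase gene PGRP-SC2 (0.63). In the absence of the hyphenated CHX library of number 1, 1 of the 9 fell as well. Of 6 Turandot stress peptide genes 0 passed, and TotA ranged from 69.7 to 236 CPM without and from 56.3 to 206 CPM with a hyphen. Of 12 heat shock genes 0 passed, with 1247 CPM without and 1459 CPM with a hyphen for Hsp83 (-0.23). Without the hyphenated day 0 library of number 1, 1 Turandot gene rose, and 1 heat shock gene fell without that library or without the hyphenated CHX library of number 1.

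Among detoxification genes, glutathione S-transferases were called in 1 direction. Of 34 tested glutathione S-transferases 7 rose (20.6%, against 3.34% of all features tested) and 0 fell, with a median of 0.18, and with the long-gene share as a covariate 5 rose and 2 fell. GstD2 had the largest value (1.36, adjusted p = 0.0443 from edgeR), but its day 0 values without a hyphen were 41.7, 11.5 and 7.37 CPM, so that 1 library stood far above the others, and with a hyphen they were 7.60, 5.21 and 5.09 CPM. GstO3, at 61.0 CPM without and 41.1 CPM with a hyphen, did not overlap (0.57, adjusted p = 0.0041 from edgeR). GstD7 had 1.25 and GstD10 0.89. Of 63 tested cytochrome P450 genes 5 rose and 4 fell (14.3%, against 6.02% of all features tested). All of the 4 largest changes were falls: Cyp4s3 given above, Cyp4ac3 (-0.95), Cyp313a1 (-0.65) and Cyp313a4 (-0.58). Without the hyphenated CHX library of number 1, 6 rose and 5 fell. Without the hyphenated day 0 library of number 1, 9 rose and 4 fell. Of 33 UDP-glycosyltransferases 1 rose, Ugt37A3 (0.82), a share (3.03%) below that of all features, and 0 rose without the hyphenated CHX library of number 1. In the antioxidant list of 21 tested genes the 5 that rose were MtnA to MtnE, and the peroxiredoxins Prx6b (-0.77) and Prx6c (-0.73) fell. The calls are 33.3% of this list, against 6.02% of all features tested.

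Of 29 tested odorant-binding protein genes 5 rose and 0 fell (17.2%, against 6.02% of all features tested). Without the hyphenated CHX library of number 1, 8 rose and 0 fell. With the long-gene share as a covariate 3 rose and 3 fell. Obp99a, which is also made outside sense organs, had 1.48 (adjusted p = 0.0111 from edgeR), with 10.2 to 40.8 CPM without and 5.64 to 14.6 CPM with a hyphen. With the covariate Obp99a missed the threshold (1.15, adjusted p = 0.114 from edgeR). Obp56d (0.69), Obp56e (0.68) and Obp57a (0.67) had 169, 10.6 and 64.0 CPM without and 104, 6.61 and 40.4 CPM with a hyphen.

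Of 12 genes of yolk and lipid transfer 2 rose and 1 fell (25%, against 6.02% of all features tested). apolpp (FBgn0087002, chromosome 4 from 1060969 to 1077273), the precursor of the main lipid carrier of the hemolymph, had 879, 2309 and 1597 CPM without and 834, 544 and 581 CPM with a hyphen at day 0. In CHX it had 1006, 1375 and 1081 CPM without and 430, 764 and 685 CPM with a hyphen. The lowest unhyphenated value lay just above the highest hyphenated one, and the log2 fold change was 1.08 (SE 0.22, adjusted p = 0.00939 from edgeR). Yp3 rose too (0.95, adjusted p = 0.0288 from edgeR, and 0.159 with the long-gene share as a covariate), at 1769 CPM without and 913 CPM with a hyphen, whereas Yp1 had 0.43 and Yp2 0.13 (adjusted p = 0.227 and 0.635 from edgeR). Lsd-1, a perilipin of lipid droplets, fell (-0.61). Desat1, a fatty acid desaturase, had 838 CPM without and 574 CPM with a hyphen (0.55) and Lst, the hormone Limostatin, 0.55. They were the 2 genes that rose of 24 tested in the list of fat synthesis and sugar response. That share, 8.33%, is near the 6.02% of all features tested.

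Of 25 genes of juvenile hormone and ecdysone 3 passed (12%, against 6.02% of all features tested), 1 up and 2 down: spo, an enzyme of ecdysteroid synthesis (1.48, at 1.6 CPM without and 0.574 CPM with a hyphen), and the nuclear receptor genes Hr4 (-1.06) and Eip78C (-0.40). There were 3 falls without the hyphenated CHX library of number 1. Of 13 clock genes 2 rose (15.4%, against 6.02% of all features tested), Pdfr (0.37) and to (0.45). The 0 calls among larval serum and fat body genes included Lsp1beta (0.07) and Fbp1 (0.04), with 406 and 617 CPM without and 386 and 602 CPM with a hyphen.

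Markers of cell types gave the following values. Of 22 tested eye and neuron markers 3 fell (13.6%, against 6.02% of all features tested), all of photoreceptors. They were inaD, the scaffold of phototransduction (-0.60, 27.1 to 42 CPM without and 48.9 to 56.5 CPM with a hyphen), chp (-0.53) and inaC (-0.43). There were 6 falls and 1 rise without the hyphenated CHX library of number 1, and without the hyphenated day 0 library of number 1, 4 fell and 0 rose. Summed eye and neuron markers had 3191 to 3541 CPM without and 3560 to 3843 CPM with a hyphen. Of 21 muscle markers 0 passed, with Mhc at -0.31 (adjusted p = 0.0648 from edgeR) and Mlc2 at -0.10, and the summed list had 77291 to 87386 CPM without and 87099 to 98109 CPM with a hyphen. Of the muscle markers 3 fell without the hyphenated CHX library of number 1, without the hyphenated day 0 library of number 1, 2 fell, and with the long-gene share as a covariate 8 fell. Over all features the calls in these fits were 1068, 918 and 832, against 681 in the main fit. Of 14 hemocyte markers 1 fell, Glt (-0.42), a share of 7.14%, near the 6.02% of all features tested. Of 18 germline and oogenesis markers 3 rose (16.7%, against 6.02% of all features tested), or 2 without either of the hyphenated libraries of number 1. The 3 were mtrm (0.71), vas (0.45, with exons shared with solo) and AGO3 (0.27). Of 19 eggshell genes, which are made in late egg chambers, 0 passed. Their summed levels were 221 to 355 CPM without and 172 to 210 CPM with a hyphen at day 0, and 27.3 to 103 CPM without and 26.3 to 37.0 CPM with a hyphen in CHX.

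Of the male germline and accessory gland list 7 of 41 genes passed the filter on low counts. The most abundant, EbpIII, had 0.19, and Sfp33A3 fell (-1.17) at 0.409 CPM without and 0.908 CPM with a hyphen. S-Lap1 reached 9.91 CPM in the hyphenated day 0 library of number 1 and at most 1.61 CPM elsewhere. Of 12 tested sex determination and dosage compensation genes 0 passed, with Sxl at -0.05 and dsx at -0.10. Oxidative phosphorylation (0 of 36), the mitochondrial genome (0 of 15), histones (0 of 5), structured RNA (0 of 8) and RNAi response genes (0 of 10) also held no call, with medians of 0.14, 0.16, 0.20, 0.07 and 0.03. Of these 2 structured RNA genes and 1 histone gene rose without the hyphenated CHX library of number 1.

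**Figure D4:**
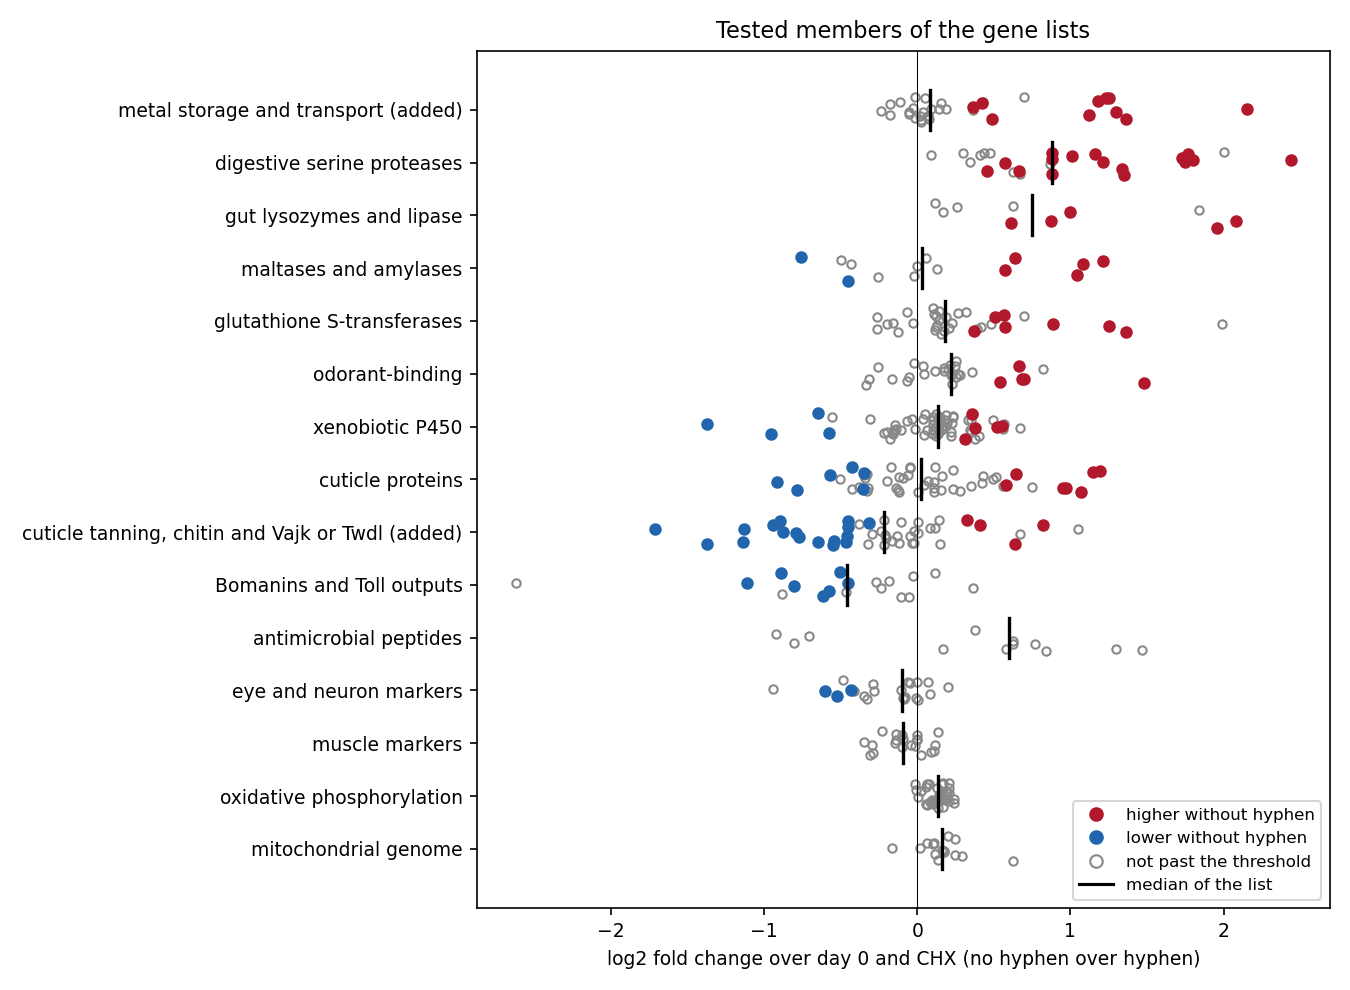
Log2 fold change over day 0 and CHX, libraries without over libraries with a hyphen, of each tested member of 15 gene lists (filled where the test was passed), with the median of each list as a bar. The digestive protease and gut lysozyme lists lie right of 0 and the tanning and Bomanin lists mostly left. Maltases and amylases and the cuticle proteins lie on both sides. Lists marked as added were assembled after results had been seen.

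The size of the series difference was compared between CHX and day 0 by the interaction term. With edgeR 0 of 11312 features passed, 206 had an unadjusted p under 0.05, and DESeq2 and limma-voom also gave 0 (212 and 218 at an unadjusted p under 0.05). Without the hyphenated CHX library of number 1, 0 passed and 1389 had an unadjusted p under 0.05. The lowest p among genes of at least 10 CPM belonged to CG3397, with log2 fold changes of 2.39 in CHX and -0.82 at day 0 (unadjusted p = 0.00105, adjusted p = 1 from edgeR). The next were Ect3 (-0.30 in CHX, 0.24 at day 0), CG15406 (0.56, -0.08), mt:ND4L (1.35, -1.15), Bbd (0.21, -0.46) and CG6908 (0.46, -0.28). mt:ND4L shares positions with mt:ND4, so its counts are uncertain. In the fit with treatment group and name series as terms, 80 features differed between CHX and day 0 (0.707%), all lower in CHX. Of these, 3 also differed between the series.

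In the 6 vehicle libraries, which share no library with the comparison, 212 of 10406 features differed between the name series (2.04%, 169 higher, 1.62%, and 43 lower, 0.413%, without a hyphen). Of the 681 features 598 were tested there, 247 of them (41.3%) had the same sign, as did 40.9% of all features tested in both, and 37 were called, 24 of these with the same sign. The 37 are 5.43% of the 681 and 18% of the 205 vehicle calls that were tested in both. The difference between the vehicle contrast and that of day 0 and CHX was tested in a fit over all 18 libraries, chosen after seeing the data: it passed for 675 of 11547 features (5.85%) and for 210 of the 681 (30.8%).

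Of the 32 metal genes tested in vehicle, 4 were called there too, all higher, against 1.62% of all features tested there. MtnA had 1742, 1291 and 1466 CPM without and 420, 248 and 230 CPM with a hyphen in vehicle flies, on a scale computed for these libraries alone, with a log2 fold change of 2.32 (SE 0.25, adjusted p = 0.00466 from edgeR). Fer2LCH had 1.01 (adjusted p = 0.0347 from edgeR), Fer1HCH 1.12 (adjusted p = 0.00895 from edgeR) and MtnD 2.15 (adjusted p = 0.0251 from edgeR), and for none of these 4 did the difference from day 0 and CHX pass (adjusted p = 0.221 to 0.833 from edgeR). MtnB had -1.44 in vehicle (adjusted p = 0.208 from edgeR), and its difference from day 0 and CHX passed (-2.71, adjusted p = 0.0014 from edgeR). In obst-A the vehicle value was -1.01, near that of day 0 and CHX, with an adjusted p of 0.209 from edgeR.

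Glutathione S-transferases had the same sign in vehicle, with a median of 0.24, 11 of 34 higher and 0 lower. Of all features tested there 1.62% were higher and 0.413% lower. GstD2 had 4.41 there (adjusted p = 0.00127 from edgeR) and Ugt37A3 4.37 (adjusted p = 0.0496 from edgeR), and for both the difference from day 0 and CHX passed (3.04 and 3.5).

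Some other groups had the opposite sign in vehicle. The 26 digestive proteases had a vehicle median of -0.82, with 0 higher and 3 lower, and 16 Bomanin and Toll output genes had 0.96, with 1 higher. The shares of all features tested in vehicle were 1.62% higher and 0.413% lower. The order by exon length was also turned, with a vehicle median of -0.08 in the fifth of features with the shortest exons and 0.08 in the fifth with the longest, and its part in these values was not tested. BomS2 had 108, 65.5 and 229 CPM without and 37.7, 40.3 and 32.4 CPM with a hyphen there. For CG14118 the vehicle value was -0.88 (adjusted p = 0.288 from edgeR) and for Obp99a -2.68 (adjusted p = 0.00466 from edgeR). apolpp had 782, 1482 and 350 CPM without and 4734, 2784 and 1926 CPM with a hyphen in vehicle flies, which gave -1.85 on the log2 scale and did not pass (adjusted p = 0.304 from edgeR), though its difference from day 0 and CHX did (-2.96, adjusted p = 0.00572 from edgeR).

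**Figure D5:**
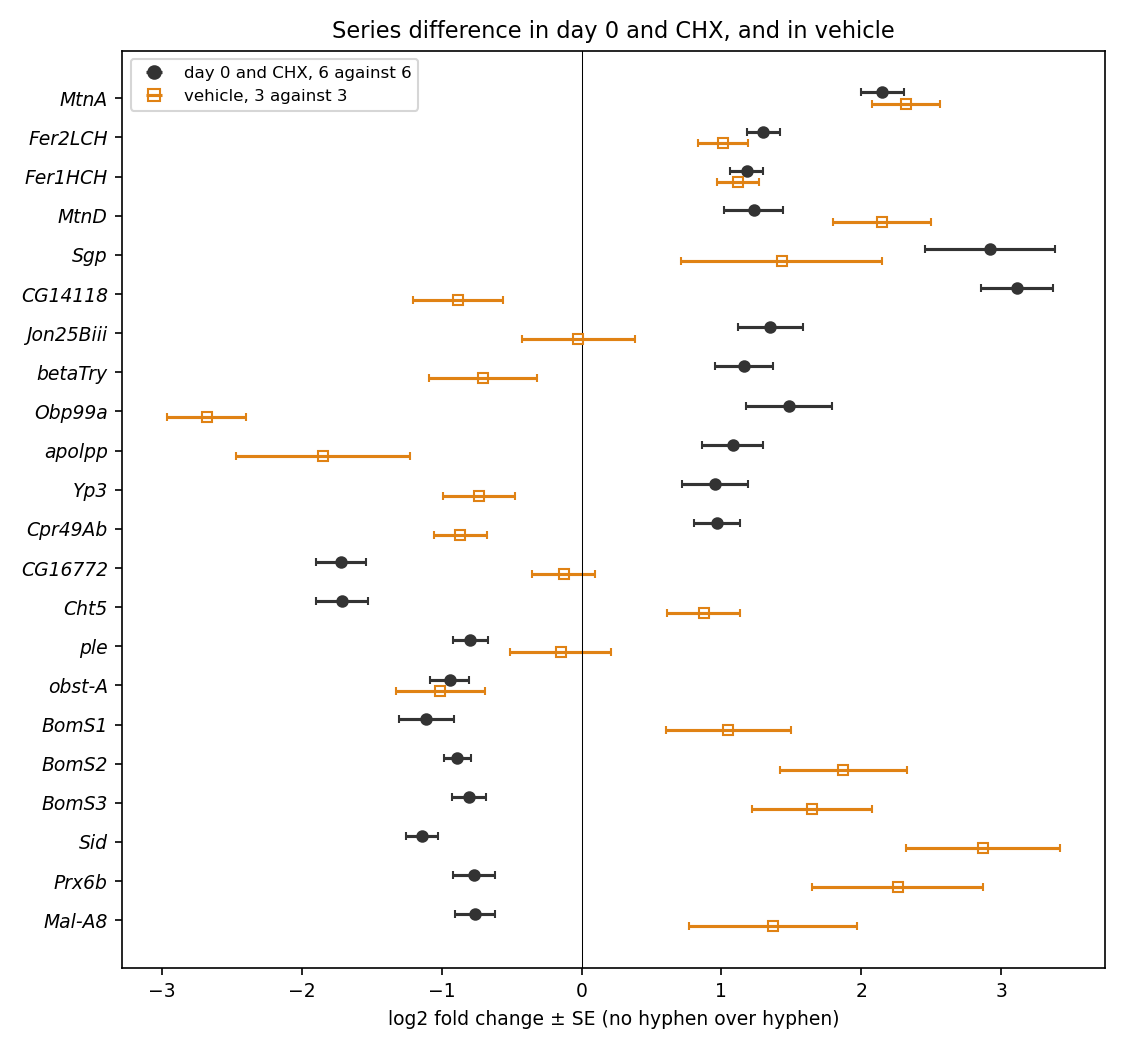
Log2 fold change with standard error, libraries without over libraries with a hyphen, of 22 genes over day 0 and CHX (filled circles) and in vehicle (open squares). MtnA, Fer1HCH, Fer2LCH and MtnD lie right of 0 in both, whereas the Bomanin genes, CG14118, Obp99a and apolpp lie on opposite sides.

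Of a list of 15 genes drawn up from the study, yolk protein genes among them, 14 were tested. Of these 2 differed between the series, apolpp and Yp3 (14.3%, against 6.02% of all features tested). The list leaves out other genes that the study names, among them rpr, which was called as described above. S6k had 0.14 and chico -0.16, both of the insulin and TOR pathway. The germline genes bam and ovo had 0.17 and 0.24, the stress genes Hsp23 and Sod1 0.17 and 0.19, the lipid transfer genes Apoltp and Mtp -0.27 and 0.05, the muscle kinase gene Strn-Mlck -0.29 and the retinal dehydrogenase gene Pdh 0.08, none of them past the threshold (adjusted p of 0.109 or above from edgeR).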

How the data were processed

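RNA sequencing of whole w1118 flies gave 18 libraries. Per the submitters' processing notes, reads were made with bcl2fastq 2.18.0.12, aligned to BDGP6 with STAR 2.7.10a and counted with HTSeq 0.12.3. The authors deposited raw counts per feature, with no normalization. Annotation, counting mode and use of strand: not given in the sources used here. Thus opposite-strand neighbors cannot be told apart. Summary rows of the counter that name no gene held 8.46% to 11.7% of the counts of the 12 libraries and were left out. Of 23932 features, 23851 matched Ensembl 115 (BDGP6.54), which supplied coordinates and exon lengths. The columns of no sample numbered 0.

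Libraries were grouped by treatment and by the hyphen in the library name. Features were filtered with filterByExpr, scaled by TMM and tested in edgeR 4.0.16 (R 4.3.3, robust quasi-likelihood test, Benjamini-Hochberg adjusted p under 0.05). The comparison over day 0 and CHX used a fit with treatment group and name series as terms. Contrasts within day 0, within CHX and of the interaction came from a fit with 1 mean for each of the 4 groups. The interaction was the CHX difference minus that of day 0. Vehicle libraries were filtered and fitted alone. CPM are TMM-scaled. Library measures were compared by an exact permutation test over 400 arrangements. The scripts were tested on simulated data. Alternatives were RLE, upper quartile and no scaling, DESeq2 1.42.0, limma 3.58.1 (voom), other count filters, a replicate block, a fold threshold, all 18 libraries in 1 fit, and leaving out each library. The long-gene covariate and the contrast of vehicle with the rest were chosen after seeing the data.

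Named genes were the 12 highest and 12 lowest fold changes among called genes under further conditions. These were at least 10 CPM in the higher series and no overlap of the series within day 0 and within CHX. Added to them were up to 4 called members of each list with the largest change (or, where none passed, the 2 most abundant). The 6 genes of at least 10 CPM with the lowest interaction p and a list of genes drawn up from the study were also named. Of 739 listed symbols 729 matched. Other genes named were chosen after their values were seen, as were 3 added lists. The comparison, the members and the lists were chosen with earlier results of these data known.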

Additional observations from a re-analysis of the deposited data

Results flagged for a closer look

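Single libraries stood apart from the other 5 of their series by Dixon's criterion, which chance meets in about 1 in 20 groups. The groups came from library measures, list sums and named genes, of which there are 154, in each series. With so many groups, chance alone would give a number of such libraries, and those below are not shown to exceed it. The TMM factor of the hyphenated CHX library of number 1 was 0.922, and its summed glutathione S-transferases had 5896 CPM. The summed RNA virus and RNAi response genes of the unhyphenated day 0 library of number 1 had 1423 CPM. The unhyphenated day 0 library of number 1 stood apart as highest of its series for GstD2 (41.7 CPM). The unhyphenated day 0 library of number 2 stood apart as highest of its series for Apoltp (172 CPM). The unhyphenated day 0 library of number 3 stood apart as highest of its series for Jon66Ci (1.26 CPM). The unhyphenated CHX library of number 2 stood apart as highest of its series for Mal-A3 (89.2 CPM). The unhyphenated CHX library of number 3 stood apart as highest of its series for BomBc3 (32.1 CPM). The unhyphenated day 0 library of number 1 stood apart as lowest of its series for Npc2f (10.5 CPM), Sxl (103 CPM). The unhyphenated day 0 library of number 3 stood apart as lowest of its series for obst-A (107 CPM). The hyphenated day 0 library of number 1 stood apart as highest of its series for CG31681 (7.97 CPM), Jon25Bi (37.4 CPM), MtnC (17.8 CPM), Obp99a (14.6 CPM), S-Lap1 (9.91 CPM). The hyphenated day 0 library of number 2 stood apart as highest of its series for Bbd (306 CPM). The hyphenated CHX library of number 1 stood apart as highest of its series for Fer1HCH (938 CPM), IM33 (380 CPM), Mlc2 (22272 CPM), Obp56e (9.52 CPM). The hyphenated day 0 library of number 2 stood apart as lowest of its series for mag (20.5 CPM). The hyphenated CHX library of number 3 stood apart as lowest of its series for Cyp4ac3 (11.8 CPM).

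For the following genes the series difference in vehicle departed from that over day 0 and CHX in the fit of all 18 libraries (edgeR, adjusted p under 0.05), given as the vehicle log2 fold change minus that of the rest. It was negative for CG4830 (-6.45), LysB (-6.1), Jon25Bi (-4.89), Jon66Ci (-4.54), CG14500 (-4.5), LysE (-4.48), Obp99a (-4.19), CG14118 (-4.02), CG31681 (-3.89), spo (-3.68), apolpp (-2.96), MtnB (-2.71), PGRP-SC2 (-2.32), epsilonTry (-2.29), CG11911 (-2.17), Jon99Cii (-2.06), Jon65Aiii (-2.06), Jon99Ciii (-1.94), betaTry (-1.9), Cpr49Ab (-1.87), Yp3 (-1.72), Cyp313a1 (-1.5), Obp56e (-1.21), Yp2 (-1.14), Obp56d (-0.99), Desat1 (-0.82), vas (-0.77), Mtp (-0.56). It was positive for Sid (3.99), CG15263 (3.55), Ugt37A3 (3.5), GstD2 (3.04), Prx6c (3.02), Prx6b (3.01), BomS2 (2.73), Cht5 (2.55), BomS3 (2.43), dyw (2.23), BomS1 (2.15), Mal-A8 (2.09), Cyp4ac3 (1.88), BomBc3 (1.8), Mal-A6 (1.77), Lsd-1 (1.66), CG16772 (1.56), slow (1.15), CG15406 (0.78), inaC (0.76). The share of all features that passed this test was 5.85%.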

How the results depend on the processing

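Of 106 named genes called over day 0 and CHX, 59 passed in every setting in which they were tested and 0 changed direction. Leaving out 1 library, 23 of the 106 missed the threshold at least once, with these highest adjusted p-values from edgeR: AGO3 (0.139), Amyrel (0.115), Dso1 (0.0857), Dso2 (0.0533), Eip78C (0.0955), Glt (0.0634), GstD10 (0.118), GstD2 (0.126), Jon25Bi (0.14), Jon65Aiii (0.0689), LysB (0.0833), LysE (0.131), MtnE (0.0977), PGRP-SC2 (0.115), Sfp33A3 (0.0937), Ugt37A3 (0.087), Yp3 (0.0857), chp (0.0999), kkv (0.0702), mtrm (0.0779), spo (0.0535), to (0.08), vas (0.106). With the long-gene covariate 79 passed, and with all 18 libraries in 1 fit also 79.

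The count over day 0 and CHX was 681, and 1133 with DESeq2, 149 at an absolute log2 fold change over 1 and 404 with all 18 libraries in 1 fit. Leaving out 1 library gave 377 to 1068. Library sizes alone gave 325 higher and 339 lower, against 378 and 303. For day 0 the count of 94 was 347 with DESeq2, 53 over the fold threshold, 55 with all 18 libraries and 360 with the long-gene covariate, and 2 to 228 with 1 library left out. For CHX the count of 35 was 18 with upper quartile factors, 354 with DESeq2, 73 with no filter beyond 1 count and 20 over the fold threshold, and 1 to 1458 with 1 library left out. The interaction count was 0 in every setting. For vehicle the count of 212 was 590 with DESeq2 and 699 with all 18 libraries, and 58 to 343 with 1 library left out. The cause of these shifts was not tested. The remaining counts stayed within 1.5 times the main one. Some results rest on low counts, such as Jon66Ci, Sfp33A3 and spo.

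Deviations of same-numbered libraries from their group means had correlations of 0.25, 0.41 and -0.03 at day 0 and -0.44, -0.39 and 0.043 in CHX. With 3 libraries per group these cannot decide whether the numbers pair the libraries. A replicate block within treatment group gave 592 features (521 shared), 78 at day 0 and 48 in CHX, with 0 for the interaction.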
